A study of Mus musculus with 18 samples.

Results

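Immediate early transcription factors are DNA-binding proteins and their partners whose genes are switched on within minutes of a stimulus. The 10 genes followed here are Fos, Fosb, Jun, Junb, Jund, Egr1, Egr2, Ier2, Atf3 and Klf4. They were chosen by symbol, through the Ensembl identifiers of GENCODE M21, and all 10 were found among the 55414 genes of the deposited count table. RNA was sequenced from Wild Type C57BL/6J mice after 30 days of PM2.5, fine airborne particles, or of filtered air, in a study titled for erythrocyte turnover. The isolated splenic macrophages comprised 5 PM2.5 and 5 air libraries, and whole spleen comprised 4 PM2.5 and 4 air libraries. Titles in the exposed groups carry the abbreviation CAP together with the word Air, and the meaning of CAP is not spelled out. The text on the second experiment speaks of filtered air after the exposures, without saying whether this was a recovery period. The sources used here give neither sex nor age, nor the way in which macrophages were isolated. Libraries are named biological replicates, with no statement on animals, so p-values measure the spread between these libraries. The treatment tag of macrophage PM2.5 replicate 1 says air. Its title holds CAP and Air, as do those of the other exposed libraries, and its description has the same form as those of the other exposed macrophage libraries. This library was grouped by the CAP of its title, and values without it or with it as air stand beside the results it touches.

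Immediate early genes need no new protein to be transcribed, because growth factors, cytokines, stress and cell adhesion act on regulators that already sit at their promoters, such as serum response factor and CREB. Their transcripts are usually short-lived. FOS and JUN family proteins pair through leucine zippers to form AP-1, while EGR and KLF proteins bind GC-rich DNA through zinc fingers. In macrophages these factors take part in activation and differentiation. Taking cells out of a tissue is itself known to raise many of these transcripts.

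Total counts per library lay between 16493694 and 33844807. Markers were read to check the labelled cell type. All 12 macrophage markers, among them Vcam1, Spic and Adgre1, were higher in macrophage air than in spleen air libraries, and their summed level was 17603 to 25754 CPM (counts scaled to the size of the library) in macrophage PM2.5 libraries, 21068 to 29239 in macrophage air, 793 to 1105 in spleen PM2.5 and 531 to 882 in spleen air. Of 7 T cell markers 6 were lower in macrophage air than in spleen air libraries, as were 6 of 7 B cell and all 8 stromal markers. The summed B cell markers still had a median of 2581 CPM in macrophage air, against 5395 CPM in spleen air libraries. Plasma cell, endothelial and neutrophil sums had medians of 836, 834 and 190 CPM in macrophage air, against 653, 247 and 24.5 CPM in spleen air libraries, although 5 of the 7 endothelial markers were called lower. Of 11 erythroid markers 9 were higher, so the isolated cells were not free of red cell transcripts.

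The upstream DNA of 5 members is shown, with Egr2 as the member that did not differ between preparations. All 5 windows shown hold marked motifs. Jun, which the results also turn on, is not shown, and its window held none. Sequences are the 250 bases before the transcription start, 5′ to 3′ on the gene's strand, from RefSeq on build GRCm38.p6. Windows were read for 8 of the 10 members, with more than 1 start for Egr2. Capitals mark the CREB half-site TGACG on either strand, the EGR site GCGNGGGCG on either strand, the serum response CArG box, and the TATA box TATAAA on the gene's strand. The windows lie at chr12:85473640-85473889 (plus strand) for Fos, chr7:19310046-19310295 (minus) for Fosb, chr8:84978749-84978998 (minus) for Junb, chr4:55532476-55532725 (minus) for Klf4 and chr10:67537619-67537868 (plus) for Egr2.
Fos: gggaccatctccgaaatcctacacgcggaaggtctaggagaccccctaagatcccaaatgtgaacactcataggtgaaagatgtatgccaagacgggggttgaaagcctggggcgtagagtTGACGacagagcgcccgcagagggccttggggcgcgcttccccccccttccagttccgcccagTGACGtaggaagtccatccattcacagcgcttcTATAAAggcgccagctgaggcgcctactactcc
Fosb: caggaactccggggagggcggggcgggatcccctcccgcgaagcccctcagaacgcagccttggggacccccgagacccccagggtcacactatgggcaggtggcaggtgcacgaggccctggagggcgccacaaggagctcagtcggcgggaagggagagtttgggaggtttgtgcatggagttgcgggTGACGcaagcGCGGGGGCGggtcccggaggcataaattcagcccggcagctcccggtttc
Junb: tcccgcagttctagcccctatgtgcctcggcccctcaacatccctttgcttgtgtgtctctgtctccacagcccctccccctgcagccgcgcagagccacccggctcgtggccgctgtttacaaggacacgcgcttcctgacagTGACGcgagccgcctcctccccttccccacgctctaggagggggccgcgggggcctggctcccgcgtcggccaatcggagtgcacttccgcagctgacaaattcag
Klf4: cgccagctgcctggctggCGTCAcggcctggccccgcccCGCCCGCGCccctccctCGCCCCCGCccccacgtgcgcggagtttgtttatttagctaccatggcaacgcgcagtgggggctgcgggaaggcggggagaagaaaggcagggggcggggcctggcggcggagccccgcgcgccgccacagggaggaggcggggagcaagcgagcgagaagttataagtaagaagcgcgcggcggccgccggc
Egr2: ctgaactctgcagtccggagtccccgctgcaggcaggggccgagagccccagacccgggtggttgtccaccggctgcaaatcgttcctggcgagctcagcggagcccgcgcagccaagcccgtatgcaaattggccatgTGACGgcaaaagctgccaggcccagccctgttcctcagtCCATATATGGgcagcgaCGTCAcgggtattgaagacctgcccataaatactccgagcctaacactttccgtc

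The Fos window held TGACG at 129 to 125 and at 66 to 62 bases before the start, with TATAAA at 33 to 28. In Fosb the half-site lay at 60 to 56 and an EGR site at 50 to 42. Junb held the half-site at 106 to 102. Klf4 held it on the other strand at 232 to 228, with EGR sites at 211 to 203 and 194 to 186. The Egr2 window shown held the half-site at 111 to 107 and at 55 to 51, and a CArG box at 72 to 63. Atf3 held a half-site at 7 to 3, in a window (chr1:191183334-191183583, minus strand) within the counted gene (191170296 to 191218039). The Egr2 window shown also lies within its counted gene, which starts at 67535475. The Egr2 window that reaches that start (chr10:67535249-67535498) held none of these motifs, and that at chr10:67537316-67537565 only a CArG box. The listed windows of Jun and Jund held none either. The Jund window (chr8:70697489-70697738, plus strand) ends well before the counted gene, which starts at 70698949. It therefore does not describe the DNA directly before that gene. Of 32851 mouse windows of the same kind, 17.8% held TGACG, 7.59% TATAAA, 4.70% an EGR site and 1.47% a CArG box. The full element TGACGTCA (1.55% of windows) and the AP-1 site TGANTCA (6.75%) were in none of the member windows read, which leave out Egr1 and Ier2. No 2 marked motifs overlapped. These matches describe letters, not bound sites.

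In isolated macrophages Fos and Jun were the most abundant of the 10 per kilobase of exon, whereas in spleen the order was led by Jund. The length used merges the exons of all transcripts, 6243 bases for Fosb and 2352 for Fos, so the order depends on it. By mean CPM alone, Jun (2119), Fosb (1751) and Fos (1729) led in macrophage air libraries. Expressed as CPM per kilobase of exon (SD, n = 5), macrophage air libraries held 735 ± 56.4 of Fos, 664 ± 53.7 of Jun, 525 ± 49.2 of Jund, 403 ± 36.5 of Junb and 281 ± 22.9 of Fosb. Lower in that order stood Ier2 (118 ± 13.9), Egr1 (115 ± 21.7), Klf4 (61.4 ± 7.24), Atf3 (56.6 ± 14.7) and Egr2 (3.77 ± 0.713). The libraries of the neighbours Fos and Jun, Ier2 and Egr1, and Klf4 and Atf3 overlapped, while the other neighbours were apart. In macrophage PM2.5 libraries the order of means was the same, with Fos at 660.4 ± 25.9 and Egr2 at 3.58 ± 0.776 CPM per kilobase, and the pairs that overlapped were Jun with Jund, Fosb with Ier2 and Klf4 with Atf3. In spleen air libraries (n = 4) Jund stood at 136 ± 86.8, followed by Ier2 at 51.8 ± 25.3, Junb at 31.01 ± 17.6 and Egr1 at 7.98 ± 2.10 CPM per kilobase. Jun (3.84 ± 0.915), Egr2 (3.50 ± 0.543), Klf4 (2.24 ± 0.504), Fos (1.37 ± 0.367), Atf3 (0.952 ± 0.212) and Fosb (0.401 ± 0.233) came below. In that order Egr1 was apart from Jun, Egr2 from Klf4 and Atf3 from Fosb, and all other neighbours overlapped. Spleen PM2.5 libraries began and ended with the same genes, Jund at 137 ± 26.1 and Fosb at 0.365 ± 0.175 CPM per kilobase.

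**Figure D1:**
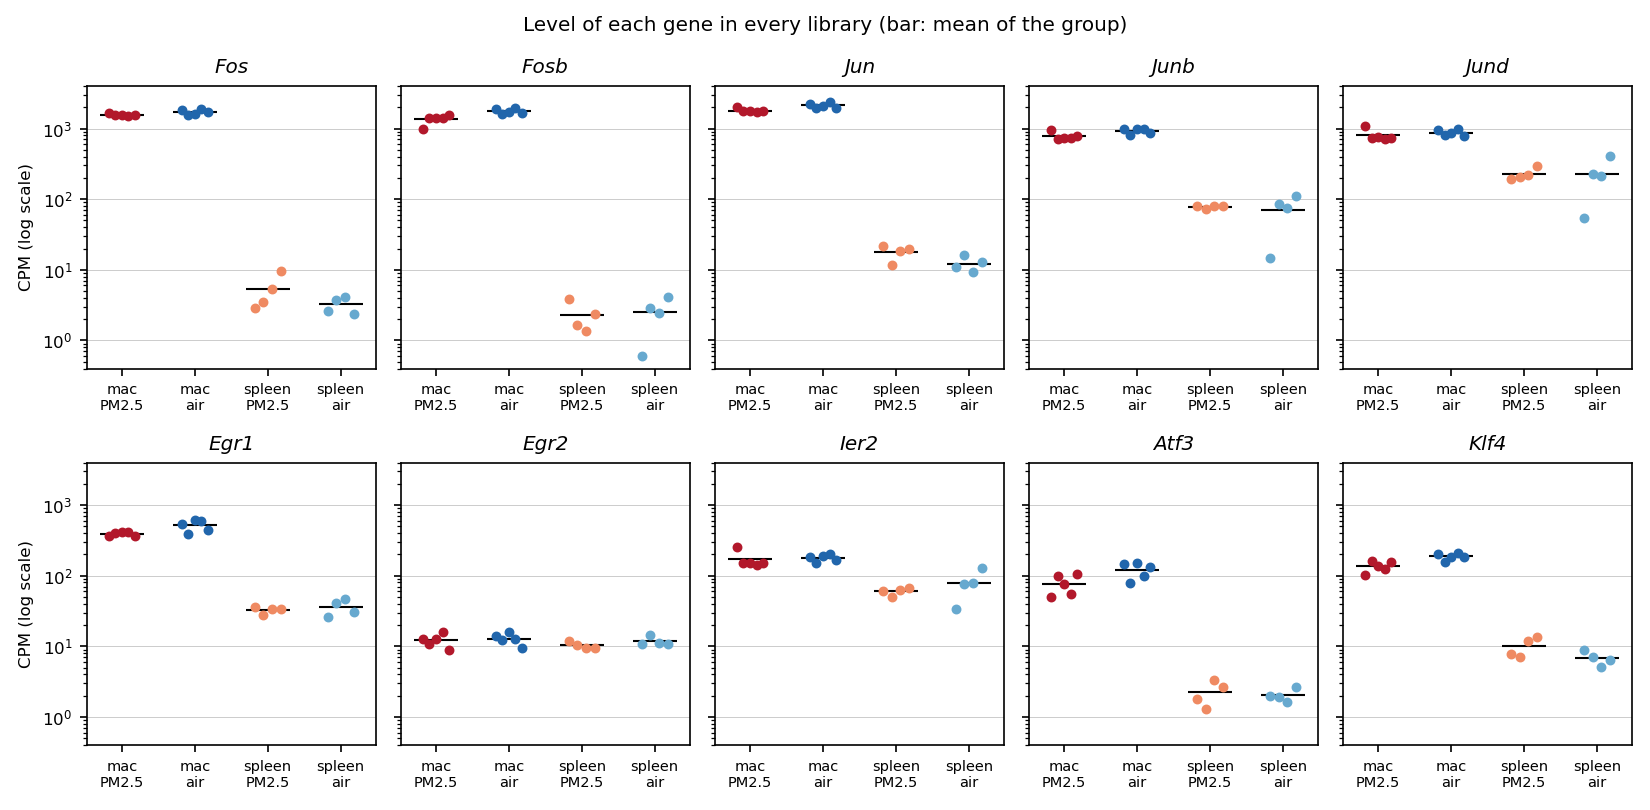
CPM of the 10 genes in each of the 18 libraries on a log axis, 1 panel per gene, with macrophage (mac) PM2.5, macrophage air, spleen PM2.5 and spleen air from left to right and bars at the group means. Fos, Fosb and Jun stand at 975.5 CPM or more in all 10 macrophage libraries and at 21.5 CPM or less in all 8 spleen libraries, while the 4 groups of Egr2 share a range of 8.84 to 15.9 CPM.

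The first comparison set isolated macrophages against whole spleen under air. Of the 10 genes 9 rose in macrophages, where 33.3% of the 17779 genes tested were called higher, and for the same 9 no macrophage air library overlapped a spleen air library, which held for 29.9% of all genes in that direction. The median log2 fold change of the 10 was 4.32, against 0.00054 over all genes. The members ranged from rank 11 (Fosb) and 19 (Fos) to rank 8197 (Egr2) by log2 fold change. Together they took 0.631% to 0.664% of all counts in macrophage PM2.5, 0.690% to 0.861% in macrophage air, 0.0440% to 0.0619% in spleen PM2.5 and 0.0166% to 0.0771% in spleen air libraries. Macrophage PM2.5 replicate 1 took 0.652%, and with it counted as air, after its tag, the macrophage ranges overlap. Isolation, cell content and experiment all differ between these groups and cannot be told apart, nor can fewer cells of a type be told from less RNA per cell in such bulk samples.

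Among the FOS partners of AP-1, Fos (ENSMUSG00000021250, chromosome 12, 85473890 to 85477273, plus strand) had 1648, 1533, 1559, 1480.5 and 1545 CPM in macrophage PM2.5 replicates 1 to 5 and 1802, 1573, 1629, 1905 and 1739 CPM in macrophage air replicates 1 to 5. In spleen it had 2.84, 3.51, 5.39 and 9.66 CPM in PM2.5 replicates 1 to 4 and 2.65, 3.75, 4.16 and 2.36 CPM in air replicates 1 to 4. Fos rose 531-fold in macrophage air against spleen air libraries (log2 fold change 9.05, SE 0.338, adjusted p = 1.72e-13, edgeR). Fosb (ENSMUSG00000003545, chromosome 7, 19302696 to 19310051, minus strand), which encodes a FOS paralogue, had 976, 1390.1, 1427, 1428 and 1548 CPM in macrophage PM2.5 and 1862, 1582, 1728, 1929 and 1656 CPM in macrophage air libraries. The spleen libraries held 3.80, 1.63, 1.35 and 2.33 CPM under PM2.5 and 0.601, 2.83, 2.46 and 4.12 CPM under air, which rest on 10 to 91 counts per library. Its 692-fold rise was the largest of the 10 genes (log2 fold change 9.44, SE 0.416, adjusted p = 9.45e-13).

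The JUN proteins pair with FOS proteins and with each other. Jun (ENSMUSG00000052684, chromosome 4, 95049034 to 95052222, minus strand), a gene of a single exon, had 1986, 1762, 1754, 1709 and 1777 CPM in macrophage PM2.5 and 2193, 1966, 2104, 2370.2 and 1961 CPM in macrophage air libraries. Spleen libraries had 21.5, 11.7, 18.6 and 19.6 CPM under PM2.5 and 10.9, 16.04, 9.22 and 12.8 CPM under air. Jun rose 173-fold in macrophages (log2 fold change 7.43, SE 0.216, adjusted p = 1.64e-14). Junb (ENSMUSG00000052837, chromosome 8, 84974484 to 84978718, minus strand), whose protein can restrain JUN, had 944, 717, 731, 735 and 777 CPM in macrophage PM2.5 and 975, 819, 994, 993 and 854 CPM in macrophage air libraries. In spleen it had 80.2, 71.5, 80.2 and 81.00 CPM under PM2.5 and 14.9, 84.6, 75.7 and 110.3 CPM under air, so that air replicate 1 stood far below the others. Junb rose 13.0-fold (log2 fold change 3.70, SE 0.357, adjusted p = 3.77e-08).

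Jund (ENSMUSG00000071076, chromosome 8, 70698949 to 70700616, plus strand) encodes the JUN protein with the most constant presence in resting cells. It had 1091, 727, 761, 708 and 742 CPM in macrophage PM2.5 and 939, 811, 878, 972 and 779 CPM in macrophage air libraries. Spleen levels were 196, 209, 217 and 293 CPM under PM2.5 and 54.7, 228, 215 and 409 CPM under air. The air replicates 1 and 4 of spleen were the ends of that range, and the 3.86-fold rise in macrophages was the second smallest of the 9 (log2 fold change 1.95, SE 0.342, adjusted p = 6.06e-05). Exons of Jun, Junb and Jund overlap those of Junos, Prdx2 and Gm11175 on the opposite strand, and the sources used here do not give the strand setting of the counting, so reads of these pairs could not be told apart. Prdx2, which encodes peroxiredoxin 2, had 140 to 249 CPM in macrophage PM2.5, 114 to 235 in macrophage air, 78.3 to 511 in spleen PM2.5 and 104 to 161 in spleen air libraries.

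Zinc finger factors followed different patterns. Egr1 (ENSMUSG00000038418, chromosome 18, 34859823 to 34864984, plus strand), a factor of growth and differentiation, had 363, 407, 418, 411 and 359 CPM in macrophage PM2.5 and 538, 395, 618, 596 and 439.9 CPM in macrophage air libraries. Whole spleens had 36.03, 27.3, 33.5 and 34.02 CPM under PM2.5 and 25.7, 40.5, 46.4 and 30.5 CPM under air. Egr1 rose 14.4-fold in macrophages (log2 fold change 3.85, SE 0.183, adjusted p = 2.26e-12). Egr2 (ENSMUSG00000037868, chromosome 10, 67535475 to 67542188, plus strand), a relative of Egr1 known in nerve myelination and in lymphocyte tolerance, had 12.8, 10.7, 12.6, 15.9 and 8.84 CPM in macrophage PM2.5 and 14.1, 12.1, 15.8, 12.7 and 9.33 CPM in macrophage air libraries. Levels in spleen were 11.8, 10.5, 9.48 and 9.38 CPM under PM2.5 and 10.9, 14.7, 11.2 and 10.8 CPM under air. Its macrophage and spleen air libraries overlapped, and it was the member that did not pass the test (log2 fold change 0.11, SE 0.176, adjusted p = 0.607).

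Klf4 (ENSMUSG00000003032, chromosome 4, 55527143 to 55532466, minus strand), a factor of monocyte differentiation and of pluripotent cells, had 101, 164, 138, 124 and 155 CPM in macrophage PM2.5 and 201, 154, 187, 212 and 181 CPM in macrophage air libraries. Whole spleens held 7.85, 7.15, 11.9 and 13.3 CPM under PM2.5 and 8.78, 7.06, 5.11 and 6.31 CPM under air. Klf4 rose 27.5-fold in macrophages (log2 fold change 4.78, SE 0.222, adjusted p = 1.71e-12). Atf3 (ENSMUSG00000026628, chromosome 1, 191170296 to 191218039, minus strand), a stress-induced repressor that pairs with JUN proteins, had 49.8, 97.7, 76.7, 55.3 and 105 CPM in macrophage PM2.5 and 147, 78.9, 151, 98.7 and 134 CPM in macrophage air libraries. In spleen it had 1.80, 1.30, 3.33 and 2.66 CPM under PM2.5 and 1.98, 1.92, 1.61 and 2.69 CPM under air. Atf3 rose 59.6-fold (log2 fold change 5.90, SE 0.330, adjusted p = 1.90e-11).

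Ier2 (ENSMUSG00000053560, chromosome 8, 84661331 to 84662852, minus strand), a single-exon gene of a nuclear protein induced by growth factors, had 253, 151, 150.1, 143 and 152 CPM in macrophage PM2.5 and 182, 152, 193, 205 and 166 CPM in macrophage air libraries. The spleen values were 60.04, 50.6, 63.2 and 67.6 CPM under PM2.5 and 33.3, 75.5, 78.8 and 127 CPM under air. It rose 2.28-fold in macrophages, the smallest rise of the 9 (log2 fold change 1.19, SE 0.257, adjusted p = 0.000492). The nearest libraries of the 2 air groups were then 152 CPM in macrophages and 127.5 CPM in spleen.

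The second comparison asked how the genes stood in macrophages after PM2.5. All 10 had a lower mean log2 level in PM2.5 than in air libraries, with a median log2 fold change of -0.24 against 0.0062 over all genes, and none passed the adjusted threshold. By edgeR, 0 of 15696 genes were called (0%), with 980 higher and 724 lower at an unadjusted p under 0.05, while DESeq2 called 175 genes and limma-voom 0. Of the members, 6 were lower at an unadjusted p under 0.05 against 4.61% of all genes, and DESeq2 and limma-voom called 0. A lower sign alone was found in 48.6% of all genes. All members are read from the same libraries, so the 10 signs are not independent.

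The largest differences under PM2.5 in macrophages were those of Atf3 (log2 fold change -0.66, SE 0.232, adjusted p = 0.360, edgeR) and Klf4 (log2 fold change -0.45, SE 0.129, adjusted p = 0.287). Atf3 averaged 76.99 ± 24.7 CPM in PM2.5 and 122 ± 31.7 CPM in air libraries (SD, n = 5 each), and Klf4 136 ± 24.9 and 187 ± 22.1 CPM. Egr1 averaged 392 ± 28.6 CPM under PM2.5 and 517 ± 97.2 CPM under air (log2 fold change -0.40, SE 0.123, adjusted p = 0.312). These 3 genes were lower on average, but their groups overlapped. Fosb averaged 1354 ± 219.7 CPM under PM2.5 and 1751 ± 143 CPM under air (log2 fold change -0.37, SE 0.120, adjusted p = 0.334). Its highest PM2.5 library, at 1548 CPM, lay below its lowest air library, at 1582 CPM, a separation seen in 1 of the 10 members and in 0.86% of all genes. It was absent with PM2.5 replicate 1, at 976 CPM, counted as air after its tag. No member was apart in the higher direction, as 1.38% of all genes were. Jun (-0.23, SE 0.0856, adjusted p = 0.377) and Junb (-0.24, SE 0.0997, adjusted p = 0.409) were the remaining members with an unadjusted p under 0.05. Fos (-0.15, SE 0.0796, adjusted p = 0.526), Jund (-0.12, SE 0.127, adjusted p = 0.763), Ier2 (-0.076, SE 0.158, adjusted p = 0.879) and Egr2 (-0.076, SE 0.172, adjusted p = 0.890) were nearer to 0.

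Macrophage PM2.5 replicate 1 stood apart within its group. It was the highest PM2.5 library for Fos, Jun, Junb, Jund and Ier2 and the lowest for Fosb, Atf3 and Klf4. Its ratio of Fos to Fosb CPM was 1.69, against 0.998 to 1.10 in the other PM2.5 and 0.943 to 1.05 in the air libraries. The same library had the highest summed plasma cell markers (4484 CPM, against 1374 to 3981 in the other PM2.5 and 761 to 2266 in the air libraries) and the highest monocyte markers (653, against 404 to 438 and 337 to 416 CPM). Their part in the levels of the 10 genes was not tested. Without this replicate, the log2 fold changes were -0.28 for Fosb, -0.33 for Junb, -0.26 for Jund, -0.28 for Ier2 and -0.38 for Klf4, and all 10 remained negative. Counted as air, after its tag, it gave -0.17 for Fosb, -0.32 for Jund, -0.37 for Ier2, -0.40 for Atf3 and -0.26 for Klf4, again with 0 members called. The macrophage marker list had no called member and 11 of 12 members with a lower mean under PM2.5, at a median of -0.13. Endothelial markers summed to 589 to 723 CPM in PM2.5 and 689 to 875 CPM in air macrophages, with lower means in 5 of 5 tested. Neutrophil markers summed to 139 to 355 CPM in PM2.5 and 156 to 244 CPM in air macrophages, with higher means in 7 of 9. The part of these cell types in the lower levels of the 10 genes was not tested.

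**Figure D2:**
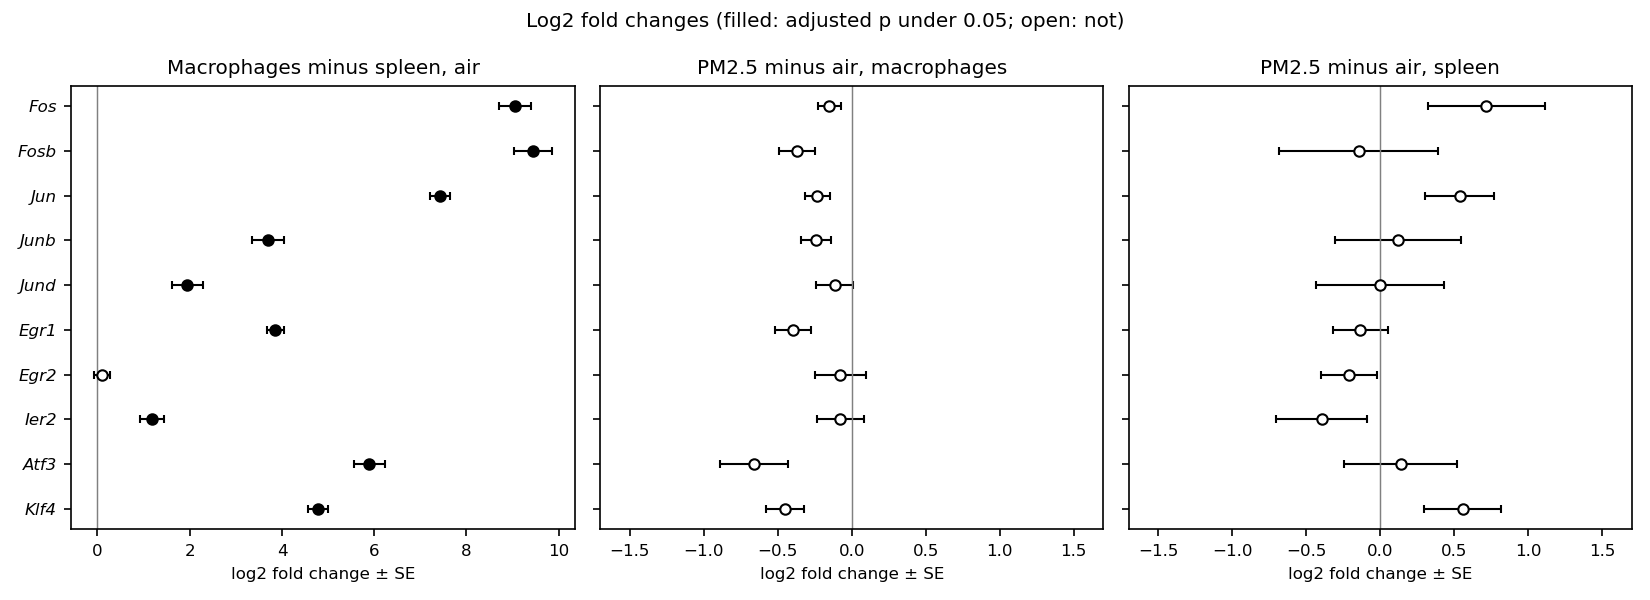
Log2 fold changes of the 10 genes (x axis) with bars of 1 SE in 3 panels, macrophages minus spleen under air (on its own scale), PM2.5 minus air in macrophages, and PM2.5 minus air in spleen. Filled points passed an adjusted p of 0.05. In macrophages all 10 points lie below 0, between -0.66 (Atf3) and -0.076 (Ier2), and in spleen 5 lie on each side, between -0.40 (Ier2) and 0.72 (Fos).

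The third comparison asked the same of whole spleen. None of the 10 genes passed the adjusted threshold, and the fitted log2 fold changes were positive for 5 and negative for 5. The groups of all 10 overlapped, where 4.31% of all genes were apart and higher and 4.66% apart and lower. A higher sign was found in 51.8% of all genes. By edgeR 0.0121% of 16551 genes were called, all higher. Jun alone had an unadjusted p under 0.05, in the higher direction, against 8.93% of all genes. DESeq2 and limma-voom called 0 members. The median log2 fold change was 0.061 for the members and 0.017 for all genes.

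The higher means belonged to Fos (log2 fold change 0.72, SE 0.395, adjusted p = 0.394, edgeR), Klf4 (log2 fold change 0.56, SE 0.262, adjusted p = 0.317) and Jun (log2 fold change 0.54, SE 0.234, adjusted p = 0.277). Fos averaged 5.35 ± 3.07 CPM in PM2.5 and 3.23 ± 0.862 CPM in air spleens (SD, n = 4 each). Klf4 averaged 10.1 ± 3.02 CPM under PM2.5 and 6.82 ± 1.54 CPM under air, and Jun 17.9 ± 4.30 and 12.3 ± 2.92 CPM. Without PM2.5 replicate 4 the log2 fold change of Fos was 0.27. For Fos and Klf4 the PM2.5 replicates 3 and 4 were above every air library, and replicates 1 and 2 lay within the air range. The same replicates 3 and 4 had the highest summed markers of stromal cells (415 and 946 CPM, against 267 and 313 in replicates 1 and 2 and 176 to 392 in air) and of mesothelium, the outer lining of the spleen (120 and 234 CPM, against 39.7 and 40.6 in replicates 1 and 2 and 2.75 to 5.35 in air). All 8 stromal and all 7 mesothelial markers had higher means in PM2.5 spleens, none of them called. The summed macrophage markers had the same order, with 967 and 1105 CPM in PM2.5 replicates 3 and 4, 793 and 866 CPM in replicates 1 and 2, and 531 to 882 CPM in air, and all 12 had higher means in PM2.5 spleens, none called. Replicates 3 and 4 also led in summed neutrophil (132 and 206 CPM, at most 100.4 in air), endothelial (314 and 332, at most 279 in air) and platelet markers (204 and 226, at most 161 in air). Monocyte, B cell, plasma cell, T cell, erythroid and liver sums did not have this order. The part of these cell types in the levels of Fos and Klf4 was not tested. Erythroid markers summed to 941 to 15759 CPM in PM2.5 and 356 to 3058 CPM in air spleens.

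The other members in spleen lay nearer to 0. Atf3 (0.14, SE 0.384, adjusted p = 0.892) and Junb (0.12, SE 0.425, adjusted p = 0.914) had slightly positive log2 fold changes under PM2.5. Jund (-0.00016, SE 0.433, adjusted p = 0.9998), Egr1 (-0.13, SE 0.188, adjusted p = 0.759), Fosb (-0.15, SE 0.538, adjusted p = 0.918), Egr2 (-0.21, SE 0.187, adjusted p = 0.611) and Ier2 (-0.40, SE 0.308, adjusted p = 0.555) had negative ones. The sign of Jund depends on the measure, since its mean CPM was 228.8 under PM2.5 and 226.8 under air. Leaving out 1 library turned the sign of Fosb, Junb, Jund, Egr1 or Atf3, and an offset for GC content turned that of Junb (-0.049).

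Spleen air replicate 1 was the lowest air library for Fosb, Junb, Jund, Egr1 and Ier2, and air replicate 4 was the highest for Fosb, Junb, Jund, Ier2 and Atf3. Relative to the mean of the other 3 air libraries, replicate 1 held 0.165 of the Junb, 0.193 of the Jund, 0.192 of the Fosb and 0.355 of the Ier2 level, but 1.43 of the Klf4 level. Genes with much G and C in their transcripts moved the same way. In the tenth of genes with the highest GC content (1456 genes), the median log2 deviation from the group mean was -0.55 in air replicate 1, against 0.25, 0.062 and 0.30 in the air replicates 2 to 4. The members with the highest GC content are Jund (67.1%), Junb (62.6%) and Ier2 (60.9%), against a median of 49.4% over 16518 genes, and the others hold 51.4% to 57.3%. In macrophage PM2.5 replicate 1 the same deviation was 0.10, the highest of the 10 macrophage libraries. The part of GC content in the levels of these single libraries was not tested. With an offset for GC content in the fit of PM2.5 minus air, Ier2 in spleen had a log2 fold change of -0.60 and Jund of -0.32, with no member called.

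**Figure D3:**
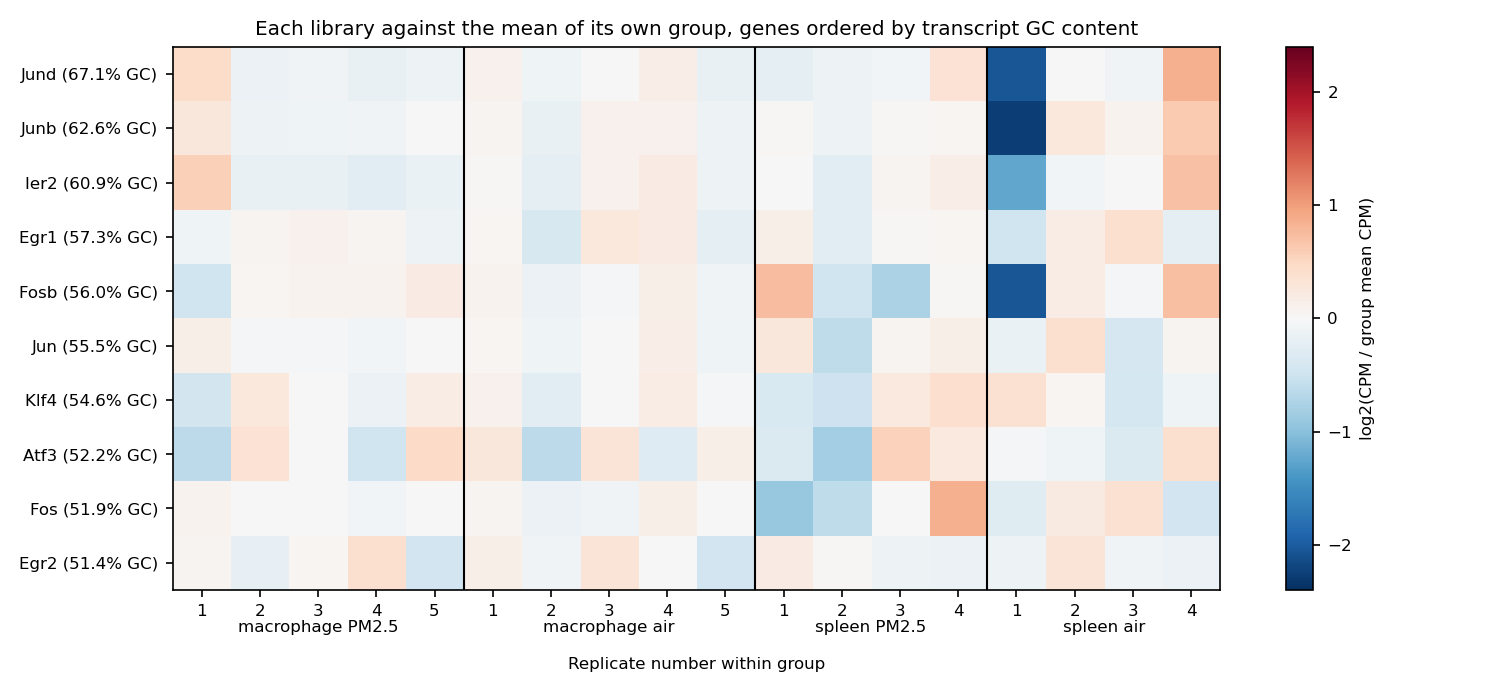
Log2 ratio of each library's CPM to the mean CPM of its own group (colour), with genes as rows ordered by the GC content of their longest transcript and the 18 libraries as columns. The darkest cells belong to spleen air replicate 1 at Junb, Jund and Fosb, with ratios of -2.26, -2.05 and -2.06, and macrophage PM2.5 replicate 1 is above its group mean at Jund, Junb and Ier2 and below it at Fosb, Atf3 and Klf4.

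The fourth comparison tested whether the PM2.5 effect differed between macrophages and spleen, in 1 fit of all 18 libraries. By edgeR 0 members were called, where 1.46% of all genes were (0.416% higher, 1.04% lower in macrophages). Klf4 lay nearest to the threshold, with a difference of -1.02, SE 0.265, adjusted p = 0.0561 (unadjusted p = 0.00111). Jun (-0.78, SE 0.225, adjusted p = 0.0725) and Fos (-0.87, SE 0.346, adjusted p = 0.165) also had an unadjusted p under 0.05 (Fos was at -0.42 without spleen PM2.5 replicate 4), all 3 in the lower direction, against 10.3% of all genes. Klf4 and Jun had lower means in PM2.5 than in air macrophages and higher means in PM2.5 than in air spleens. DESeq2 called both (adjusted p = 0.00799 for Klf4 and 0.0118 for Jun), beside 1044 of 17779 over all genes, and limma-voom called 0 members. With no filter on low counts edgeR called Klf4 (adjusted p = 0.0375). Leaving out single libraries gave 0 to 2 called members. Klf4 was called without spleen air replicate 1 or 2, spleen PM2.5 replicate 1 or 2, or macrophage PM2.5 replicate 2, and Jun without spleen air replicate 2 or spleen PM2.5 replicate 2. The remaining differences ranged from -0.81 (Atf3, adjusted p = 0.263) to 0.30 (Ier2, adjusted p = 0.667).

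Other genes of the early response showed a more mixed picture between preparations. Of 25 related early response genes 14 rose and 3 fell in macrophage air against spleen air libraries, with a median log2 fold change of 0.80. Over all genes 33.3% were called higher and 33.3% lower, the shares beside which the counts of this and the next lists stand. Rhob, which encodes a small GTPase, rose to 625 ± 59.7 CPM in macrophage air, against 27.7 ± 7.11 CPM in spleen air libraries (log2 fold change 4.49, SE 0.227, adjusted p = 5.18e-12, edgeR). Klf6, a relative of Klf4, and Sgk1, a kinase induced by serum and glucocorticoids, rose by log2 fold changes of 2.08 and 1.62. The 3 that fell, named after their values were seen, were Ccn1 (-2.61), Gadd45b (-1.04) and Egr3 (-0.98), a matricellular protein, a stress response protein and a relative of Egr2. Egr3 had 30.2 ± 7.12 CPM in macrophage PM2.5, 34.4 ± 7.03 CPM in macrophage air, 57.97 ± 10.6 CPM in spleen PM2.5 and 67.8 ± 16.2 CPM in spleen air libraries.

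Of 11 tested partners and relatives of AP-1, 7 rose and 2 fell in macrophages (median 1.004). Jdp2, a JUN dimerization partner, rose to 90.96 ± 17.5 CPM in macrophage air, against 3.99 ± 1.45 CPM in spleen air libraries (log2 fold change 4.50, SE 0.282, adjusted p = 9.20e-11), and Batf2 and Mafg rose by 2.99 and 1.04. The 2 that fell, named after their values were seen, were Batf (-0.64) and Atf4 (-0.40). Of 20 upstream regulators 8 rose and 2 fell (median 0.18), so that the share that rose was near that of all genes. Mapk14 (p38 alpha, 2.19) and Mapk8 (JNK1, 1.71) rose, and Elk4 (-1.19), a partner of serum response factor, fell.

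Of 13 feedback regulators 7 rose and 2 fell (median 0.66). Dusp1, a phosphatase that turns off p38 and JNK, had 759, 799, 769, 582 and 804 CPM in macrophage PM2.5 and 910.2, 740.4, 925, 853 and 937 CPM in macrophage air libraries. The spleen libraries had 16.2, 23.5, 25.8 and 40.7 CPM under PM2.5 and 14.1, 14.6, 16.1 and 10.9 CPM under air. It rose 62.7-fold in macrophages (log2 fold change 5.97, SE 0.239, adjusted p = 3.26e-13). Zfp36 (tristetraprolin), which speeds the decay of short-lived mRNAs, rose by 3.23 and Dusp6, a MAP kinase phosphatase, by 2.47. Of 13 heat shock genes 4 rose and 2 fell (median 0.095), again a share near that of all genes, with Hspa1a up by 5.16, Bag3 up by 0.88 and Hspe1 lower, at -1.55. Hspa1a and Hspa1b are near-identical copies, and the split of their reads is uncertain.

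**Figure D4:**
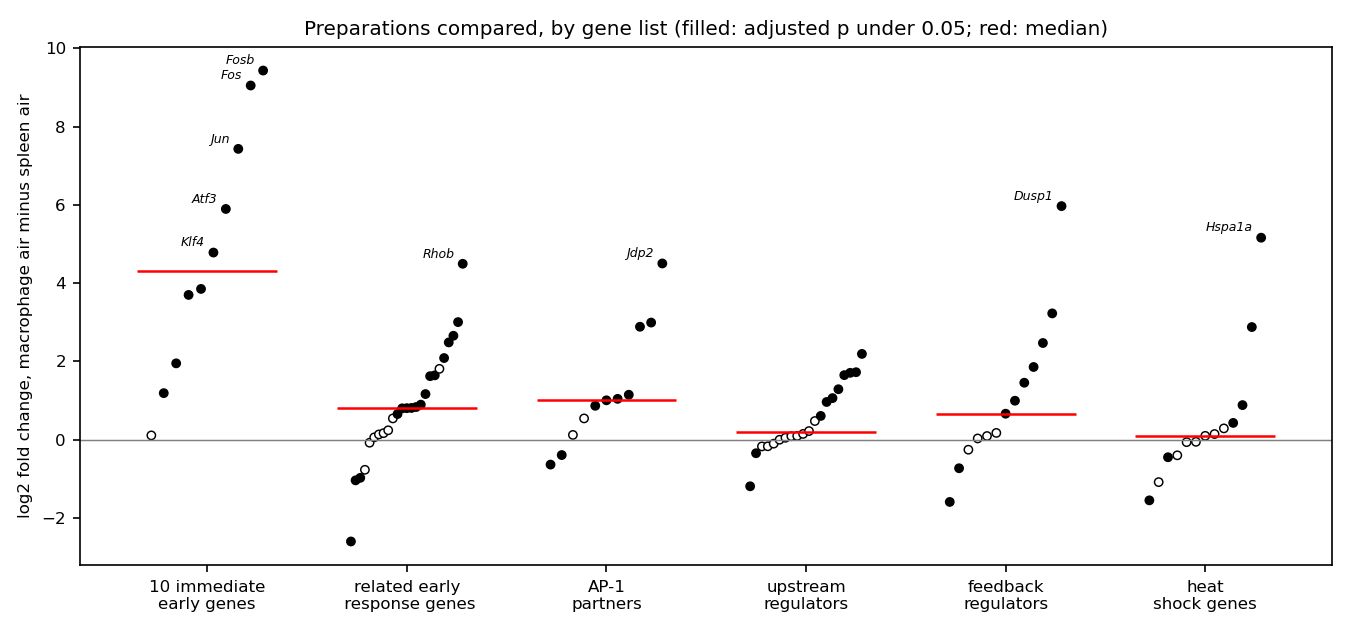
Log2 fold changes of single genes between macrophage air and spleen air libraries (y axis), by gene list, with filled points for an adjusted p under 0.05 and a red line at each list's median. The 10 immediate early factors have a median of 4.32, and the medians of the other lists lie between 0.095 and 1.004.

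Under PM2.5 none of these lists had a called gene in either preparation by edgeR or limma-voom. DESeq2 called 1 of them in macrophages (Socs3) and 6 in spleen (Ccn1, Per1, Ppp1r15a, Dusp1, Dnajb4 and Hspb1), all higher. These counts stand beside the 175 of 15696 genes in macrophages and 830 of 16551 in spleen that DESeq2 called over all genes. In macrophages, 18 of 25 related early response genes had lower means (median -0.20, with 3 lower and 3 higher at an unadjusted p under 0.05, against 4.61% and 6.24% of all genes), as did 10 of 13 feedback regulators (median -0.084, 3 lower at an unadjusted p under 0.05). A lower sign alone was found in 48.6% of all genes. Of the 20 upstream regulators 1 was lower, near the share of all genes, and no AP-1 partner or heat shock gene had an unadjusted p under 0.05. Zfp36 averaged 1305 ± 123 CPM under PM2.5 and 1570.4 ± 91.2 CPM under air (log2 fold change -0.26, SE 0.0881, adjusted p = 0.345), and its groups did not overlap. Over all genes 0.86% were apart in that direction. Dusp6 (-0.28, SE 0.106, adjusted p = 0.385), Rhob (-0.24, SE 0.0935, adjusted p = 0.389) and Mapk14 (-0.20, SE 0.0827, adjusted p = 0.403) had lower means, and Socs3, an inhibitor of cytokine signalling, a higher one (0.37, SE 0.0908, adjusted p = 0.258). Maff (adjusted p = 0.538), Batf3 (0.551), Elk1 (0.528), Hspe1 (0.540) and Hspb1 (0.571) were the genes of their lists with the next smallest p.

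In spleen, an unadjusted p under 0.05 was found for 3 related early response genes, 3 AP-1 partners, 1 feedback regulator and 3 heat shock genes in the higher direction, and for 1 gene each of all lists but the feedback regulators in the lower one. Over all genes these shares were 8.93% higher and 7.76% lower, and 4.31% were higher with groups that did not overlap. The single feedback regulator is thus near the share of all genes. Ccn1 had 14.7, 12.4, 42.9 and 52.6 CPM in PM2.5 libraries and 9.62, 5.24, 5.39 and 6.86 CPM in air libraries. The groups did not overlap, yet the test did not pass (log2 fold change 2.17, SE 0.446, adjusted p = 0.108, edgeR), and in macrophages Ccn1 had at most 1.38 CPM. Its highest libraries, PM2.5 replicates 3 and 4, are those with the most stromal and mesothelial marker RNA, and also with the most macrophage, neutrophil, endothelial and platelet marker RNA. Dusp1 did not overlap either (0.93, SE 0.253, adjusted p = 0.135), and neither did Mafg (0.55, SE 0.196, adjusted p = 0.200) or Hspb1, a small heat shock protein (2.63, SE 0.647, adjusted p = 0.126), each higher on average under PM2.5. Ppp1r15a (1.28, SE 0.383, adjusted p = 0.149), Jdp2 (0.84, SE 0.337, adjusted p = 0.251), Dnajb4 (0.56, SE 0.158, adjusted p = 0.141) and Spry2 (0.70, SE 0.326, adjusted p = 0.311) had higher means, and Elk4 (-0.39, SE 0.122, adjusted p = 0.158) a lower one. In the test of the difference of the PM2.5 effects, Ccn1 (-2.65, SE 0.559, adjusted p = 0.0290) and Dusp1 (-1.16, SE 0.266, adjusted p = 0.0424) were lower in macrophages than in spleen. They were the 2 listed genes that edgeR called in that fit, where it called 1.46% of all genes. DESeq2 called 7 (Ccn1, Dusp1, Jdp2, Hspb1, Per1, Ppp1r15a and Rhob), all lower, beside 1044 of 17779 over all genes. With single libraries left out, Ccn1 was called in 8 of 18 fits (adjusted p = 0.00956 to 0.0693) and Dusp1 in 5 of 18 (0.0072 to 0.0846), and limma-voom called neither (0.203 and 0.0775), with the same sign throughout. Dusp1 did not pass with the GC offset (adjusted p = 0.0520) or with macrophage PM2.5 replicate 1 as air (0.0768), and Ccn1 passed in both (0.0393 and 0.0299).

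The 5 genes most like the members were sought by Pearson's r between a gene's log2 CPM deviations from its group means and the mean deviations of the 10 members, over 18 libraries and among 13031 genes. They were Faap100 (r = 0.944), Lipe (0.942), Gpr137 (0.929), Smarcd1 (0.929) and Zfp777 (0.926). Over the 8 spleen libraries r was 0.964 to 0.987, and over the 10 macrophage libraries 0.406 to 0.749. The members themselves had r of 0.084 (Klf4), 0.150 (Egr2), 0.355 (Atf3) and 0.389 (Fos) up to 0.845 (Ier2), 0.878 (Jund) and 0.887 (Junb) with their own mean, the 3 highest being the 3 members with the highest GC content. That mean includes each member itself, so these r cannot be set beside those of the 5 genes. Transcripts of the 5 genes hold 55.6% to 60.9% G and C, above the median of 49.4%. The values share the libraries and their GC deviations described above.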

How the data were processed

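Per the labels, polyA RNA from a Qiagen RNeasy extraction was made into NEBNext Ultra II libraries. The deposited values are counts of reads for each Ensembl gene, not normalized, made by the authors with HTSeq 0.10.0 (with FastQC 0.10.1) on builds named mm10 and GRCm38, per the submitters' processing notes. Strand setting, aligner and annotation release were not given in the sources used here. Of 55414 identifiers 52081 had a symbol in GENCODE M21, and the 3333 without one carried 0.343% of all counts. Macrophage libraries held 18848048 to 33844807 counts under PM2.5 and 18107264 to 29013034 under air, and spleen libraries 18427891 to 19906706 under PM2.5 and 16493694 to 20352346 under air, so that counting error is small except where a gene has few counts. No library was a copy of another of its group.

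Counts were tested with edgeR 4.0.16 in R 4.3.3 (filterByExpr, minimum count 10, minimum total 15; TMM, quasi-likelihood test, two-sided, Benjamini-Hochberg over all genes, threshold 0.05). Macrophages and spleen were fitted alone for PM2.5 minus air, and all 18 libraries together for the preparations and for the difference of the effects. Where no tool is named, adjusted p-values come from edgeR. SE is the log2 fold change divided by the square root of its F value. CPM are on a TMM scale over all 18 libraries, so their ratios can differ slightly from the fitted folds. Alternatives were DESeq2 size factors, DESeq2 1.42.0, limma-voom (limma 3.58.1), 2 other filters (none, and 1 CPM or more in all libraries of a group), 1 fit of all libraries, a replicate block, macrophage PM2.5 replicate 1 as air, and leaving out each library; an offset for GC content and the counts over all genes were chosen after seeing the data. The steps were tested on simulated data.

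All 10 members are named in every comparison. Of each other list up to 3 called genes with the smallest p are named, or the 2 with the smallest p where none was called, and the 5 genes most like the members with at least 1 CPM in both experiments. A single gene named by the rule is not reported here. The members, lists and tests were chosen with earlier results of these data known. Older symbols of 3 listed genes were matched through RefSeq synonyms, and Maff is on 2 lists. Exon length, merged over the transcripts of a gene, and GC content are from GENCODE M21, the GC content of the longest transcript.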

Additional observations from a re-analysis of the deposited data

Results flagged for a closer look

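In 7 of 40 groups of values (10 genes in 4 groups) a single library stood apart by Dixon's test on the gap to its neighbour, a test that chance alone passes in about 1 of 20 groups. Macrophage PM2.5 replicate 1 accounts for 5 of them. It was the lowest of its group for Fosb (975.5 CPM) and the highest for Jun (1986 CPM), Junb (944 CPM), Jund (1091 CPM) and Ier2 (253 CPM), and it is the library with the air tag. Spleen PM2.5 replicate 2 was the lowest for Junb (71.5 CPM, against 80.2 to 81.0 in the others). Spleen air replicate 2 was the highest for Egr2 (14.7 CPM, against 10.8 to 11.2 in the others). The causes of these gaps were not tested.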

How the results depend on the processing

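The 9 members called higher in macrophages than in spleen under air were the same 9 under all alternatives run, and 0 members were called under PM2.5 in either preparation under any of them. In the difference of the effects, 2 members were called by DESeq2, 1 with no filter and 0 to 2 when single libraries were left out, against 0. Replicate numbers did not pair the libraries: deviations of same-numbered libraries correlated between -0.14 and 0.059 in spleen, with 1 of 4 best matched to its own number, and between -0.14 and 0.28 in macrophages, with 2 of 5. With the replicate block the members called stayed at 0, 0, 0 and 9, and the genes called in the difference were 91, with Ccn1 (adjusted p = 0.0749) and Dusp1 (0.106) not among them.

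Genes called in spleen numbered 2, against 1 with DESeq2 size factors, 830 with DESeq2, 1 with limma-voom, 461 with no filter, 12 with the 1 CPM filter, 1050 in the fit of all 18 libraries and 0 to 219 without single libraries. In macrophages they numbered 0, against 175 with DESeq2, 1 with no filter and 0 to 17 without single libraries. In the difference they numbered 259 (74 higher, 185 lower), against 1044 with DESeq2 (393 higher), 3 with limma-voom (0 higher), 87 with macrophage PM2.5 replicate 1 as air (0 higher), 172 with the GC offset and 68 to 1317 without single libraries, and 38 of 230 were higher with DESeq2 size factors and 15 of 91 with the block. The causes of these shifts were not tested.

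Signs turned for some members that passed no test. In spleen Jund, at -0.00016, was 0.0082 with DESeq2 size factors, 0.0083 with DESeq2, 0.31 with limma-voom, 0.017 with no filter, 0.0058 with the 1 CPM filter, 0.013 in the fit of all libraries and 0.28 with the replicate block, and Junb was -0.049 with the GC offset. The GC offset gave Jund 0.25 in the difference. Without single libraries the spleen values ranged from -0.51 to 0.21 for Fosb, -0.22 to 0.42 for Junb, -0.33 to 0.46 for Jund, -0.27 to 0.014 for Egr1 and -0.10 to 0.35 for Atf3. In macrophages Egr2 ranged from -0.20 to 0.020. In the difference Fosb ranged from -0.56 to 0.14, Jund from -0.58 to 0.20 and Ier2 from -0.023 to 0.56, and between preparations Egr2 ranged from -0.040 to 0.17. Low counts limit Fosb (10 to 91) and Atf3 (27 to 74) in spleen.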

Other observations

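The proportions among the AP-1 genes differed between preparations and between libraries. Per library the ratio of Junb to Jun CPM was 0.407 to 0.475 in macrophage PM2.5 and 0.417 to 0.472 in macrophage air libraries, against 3.73 to 6.13 in spleen PM2.5 and 1.36 to 8.62 in spleen air libraries. The ratio of Jund to Jun CPM was 0.412 to 0.549 in macrophage PM2.5, 0.397 to 0.428 in macrophage air, 9.11 to 17.9 in spleen PM2.5 and 5 to 31.9 in spleen air libraries. Fos, Fosb and Jun together took 0.405% to 0.451% of all counts in macrophage PM2.5 libraries and 0.468% to 0.575% in macrophage air libraries, 2 ranges that do not overlap. The 0.405% belongs to PM2.5 replicate 1, and with that library counted as air, after its tag, the air range holds all PM2.5 values (0.428% to 0.451%). They took 0.00187% to 0.00368% in spleen PM2.5 and 0.00143% to 0.00260% in spleen air libraries. These ratios and shares were computed after the data were seen and were not tested.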
